A study of Mus musculus with 10 samples.

Results

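The 10 genes described here are core parts and outputs of the circadian clock: Arntl (the older symbol of Bmal1), Per1, Per2, Per3, Cry2, Nr1d1, Nr1d2, Dbp, Tef, and Ciart. They were taken as a named list from the 16112 genes of the count tables by matching Ensembl identifiers to symbols, and all 10 were found. RNA was sequenced from 3 skeletal muscles of mice in 10 libraries: 3 of EDL (extensor digitorum longus) and 3 of psoas, which are mainly made of fast-twitch fibers, and 4 of soleus, which is rich in slow-twitch fibers. All mice were homozygous wild-type animals of the B6C3Fe a/a-Ttnmdm/J colony, were housed in equal periods of light and dark and had been used in another study, and no treatment is named for them. The question for these genes was whether they differed more between muscles or between libraries of the same muscle.

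EDL 1, psoas 1, and soleus 1 came from mice aged 42 days, EDL 2 and psoas 2 from mice aged 54 days, EDL 3, psoas 3, soleus 2, and soleus 4 from mice aged 44 days, and soleus 3 from a mouse aged 32 days. The libraries from 42 and 54 days are labelled male and those from 44 days female, and no sex is given for soleus 3. Psoas 1 and soleus 1 share an animal code, as do EDL 3 and soleus 2, and psoas 3 and soleus 4. There are 7 codes in all, and the methods state a smaller number of mice, so a mouse may have more than 1 code. The time of day at which tissue was taken is not given in the sources used here. Age, litter, and day or hour of collection therefore cannot be told apart. Read processing also goes with age in part, since all libraries with trimmed reads are from 42 or 54 days. Every library from 42 days had a smaller share of mapped reads than any from 44 or 32 days, and those from 54 days differed from each other. The sequencing run of each library is not given, so run cannot be told apart from age either. The part of trimming, mapping, and run in the differences by age was not tested. Sex cannot be told apart from age where the 44-day libraries enter a difference, whereas those from 42 and 54 days are all male. The word "age" below names the label only.

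The circadian clock is a feedback loop of transcription that runs in nearly every cell of the body, including muscle fibers, with a period of about a day. The activators BMAL1 (encoded by Arntl) and CLOCK bind E-box sequences and switch on Per, Cry, Nr1d, Dbp, Tef, and Ciart genes. The PER and CRY proteins then block the activators, and the nuclear receptors NR1D1 and NR1D2 repress Arntl. In mouse tissues, transcripts of Arntl peak at about the opposite time of day from those of the E-box targets, and in muscle the clock is known for timing the use of glucose and fat.

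The short stretches of promoter shown next carry the binding letters of this loop in Ciart and Per3. Both genes were lowest in soleus 3, as were Per1, Per2, Nr1d2, Dbp, and Tef, so this is not particular to them. They were taken from RefSeq promoter sequences (GRCm38.p6), which covered 9 of the 10 genes with 12 start sites; Per2 was not among them. The first lies before the start of Ciart, on the minus strand at chr3:95882257-95882354, and capitals mark 3 copies of the E-box CACGTG, which begin 116, 58, and 44 bases before the start.

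Ciart: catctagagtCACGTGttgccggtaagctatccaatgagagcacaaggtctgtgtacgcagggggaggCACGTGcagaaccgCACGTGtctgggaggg

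The second lies before the start of Per3, on the minus strand at chr4:151044806-151044880, and capitals mark 2 copies of the D-box TTATGTAA, the sequence bound by DBP and TEF, which begin 205 and 158 bases before the start.

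Per3: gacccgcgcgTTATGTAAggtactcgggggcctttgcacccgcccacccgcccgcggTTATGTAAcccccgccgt

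In the 250 bases before each start, on both strands, CACGTG was found for Ciart, Per1, and Tef, and in 6.02% of all 32851 promoters. The variant CACGTT was found for Cry2 and Nr1d1 and in 3.85% of all promoters. TTATGTAA or TTACGTAA was found for Per3 alone among the clock genes and in 0.931% of all promoters. TAGGTCA or TGGGTCA, the core of the site bound by NR1D receptors, was found for none of the 9 genes and in 5.38% of all promoters. These are matches of letters in short windows, and no binding was measured.

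The transcripts were measured as counts of reads per gene, and total counts ranged from 12737971 (soleus 3) to 50431713 (psoas 1), with a median of 18859463.5. Values below are normalized CPM, which are counts scaled to CPM with TMM library sizes in edgeR, unless FPKM (also divided by transcript length) is named. Soleus 3 stood apart in several ways: it was the shallowest library, the youngest, and the only one without a sex, and it held the highest summed level of 10 immediate early genes (263 CPM, against 64.9 to 187 in the other libraries) and of 5 adipocyte markers (138 CPM, against 8.52 to 87.7). By the RNA integrity numbers in the paper, it was also the lowest soleus library. Psoas 1 was the lowest of all, and every EDL library was above all psoas and soleus libraries. The part of RNA integrity in the clock gene values was not tested. The labelled muscles carried their markers, since Myh7, the slow myosin, was at 9824 ± 2970 (SD, n = 4) in soleus and Myh4, the fast myosin, at 44037 ± 9398 (SD, n = 3) in EDL and 53922 ± 3425 in psoas. For none of the 10 genes was a soleus library outlying by Dixon's ratio on CPM, which was highest for Arntl in soleus 3 (0.758, under the critical value for 4 libraries). On this scale and with 4 libraries the ratio can hardly flag a low value, and Ciart in soleus 3 had 0.289. It therefore does not show that soleus 3 was like the others. The main descriptions of spread, likeness, and age are given with and without soleus 3. In bulk muscle, fewer cells of a type and less RNA per cell cannot be told apart.

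Levels per length were ordered by the median FPKM over the 10 libraries. Nr1d2 was highest at 34.2 (range 17.5 to 40.4), followed by Tef at 16.5 (10.5 to 25.9) and Dbp at 5.90 (1.36 to 8.09). The ranges of Nr1d2 and Tef overlapped, whereas the lowest Tef value was above the highest Dbp value. Nr1d1 had a median of 2.596, Cry2 of 2.02, Per1 of 1.82, Arntl of 1.22, Ciart of 1.16, and Per3 of 1.10, and each of these overlapped its neighbors in range. Per2 was lowest at 0.484 (0.163 to 2.05), within a range that overlapped that of Per3. Ciart reached only 4 counts in soleus 3 and Per2 only 12, so these values carry a large counting error.

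The 10 genes lie on 8 chromosomes of GRCm38 (GENCODE M21) and are all protein coding. Arntl lies on chromosome 7 from 113207465 to 113314126, and Dbp lies on the same chromosome from 45705088 to 45710203. Per1 (69095217 to 69109960) and Nr1d1 (98767932 to 98775333) lie on chromosome 11, Per2 on chromosome 1 (91415982 to 91459324), Cry2 on chromosome 2 (92403646 to 92434043), Ciart on chromosome 3 (95878503 to 95882251), and Per3 on chromosome 4 (151003652 to 151044665). Nr1d2 lies on chromosome 14 (18204054 to 18239127) and Tef on chromosome 15 (81802421 to 81826863). Nr1d1 shares 263 exon bases with Thra on the opposite strand, Dbp shares 539 with Sphk2, and Cry2 shares 295 with D930015M05Rik. Tef shares 193 exon bases with Gm17597 and Arntl shares 33 with Gm45355, also on opposite strands, and neither partner is among the 16112 genes. The libraries were stranded, but the strand setting of the counting is not given in the sources used here, so some reads of these 5 genes may belong to the partner. Among the partners with counts, Thra, that of Nr1d1, had the most, at 5059 over the 10 libraries.

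Arntl, the activator, varied most. It was at 4.25 CPM in EDL 1, 12.7 in EDL 2, and 6.65 in EDL 3. In psoas it was at 3.59, 14.4, and 8.14 CPM in replicates 1 to 3. In soleus it was at 1.57, 10.2, 39.6, and 10.8 CPM in replicates 1 to 4. In each muscle the library from 42 days was the lowest, and the lowest and highest soleus libraries differed 25.2-fold, whereas the highest and lowest muscle means differed 1.98-fold. The ranges of the 3 muscles overlapped, because the EDL and psoas values lay within the soleus range. Among the libraries of each age, Arntl ranged from 1.57 to 4.25 CPM at 42 days and from 6.65 to 10.8 at 44 days. At 54 days it ranged from 12.7 to 14.4 CPM. These 3 ranges did not overlap, whereas some of them did for each other clock gene. The share of all genes without such overlap was not counted, and some libraries of the same age share an animal code.

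**Figure D1:**
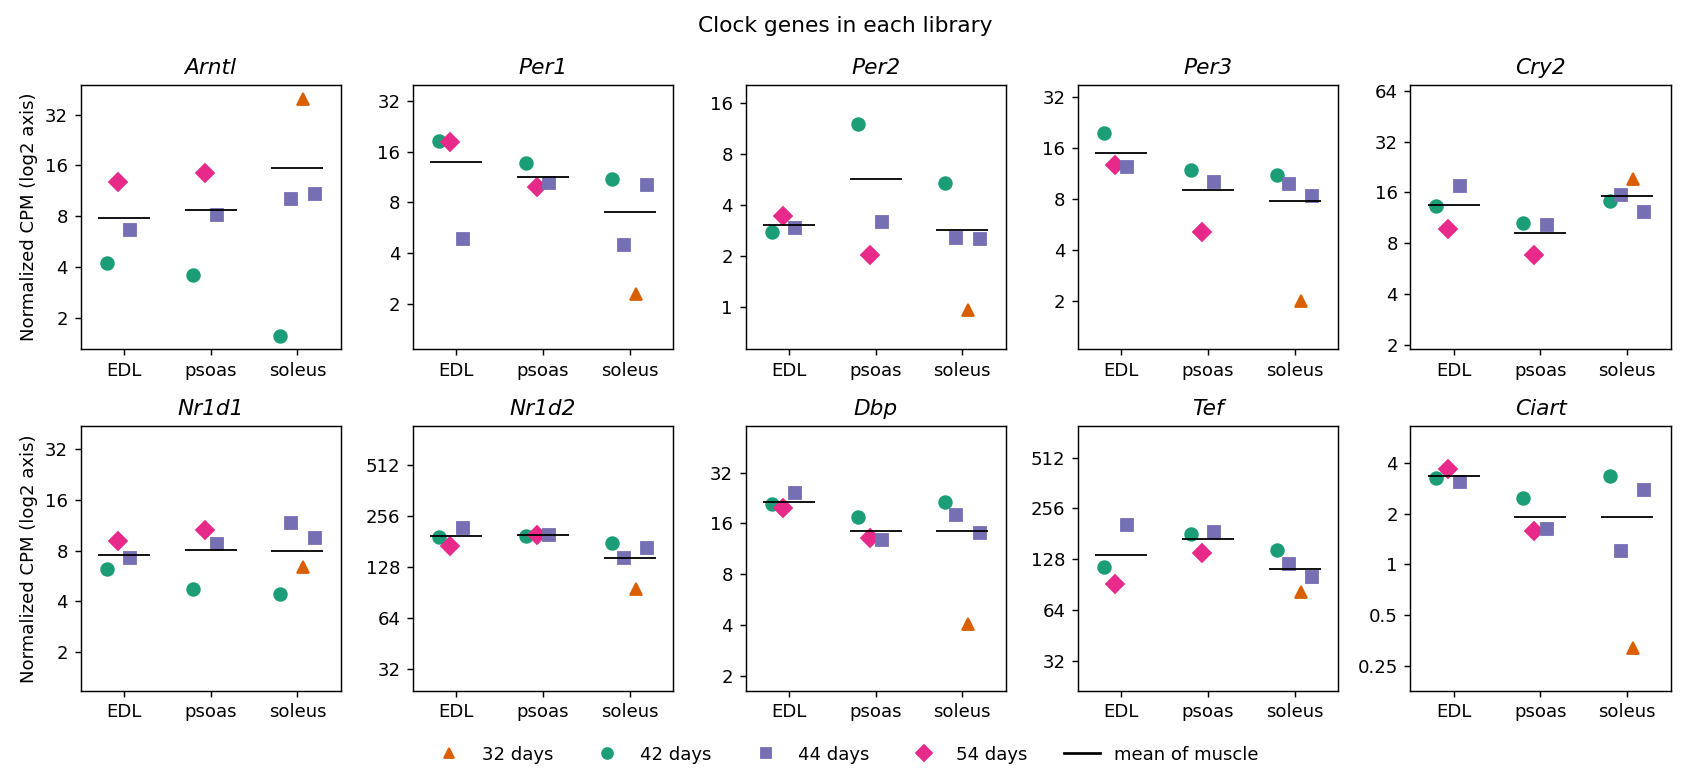
Normalized CPM of the 10 clock genes in each library, by muscle, with symbols for age and a line at the mean of the muscle; each log2 axis spans the same fold range. Arntl in soleus runs from 1.57 to 39.6 CPM, whereas Nr1d2 in psoas stays between 196 and 199 CPM.

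The Per genes, Cry2, and Ciart encode repressors of the loop, and they did not move as a block. Per1 was at 18.5, 18.1, and 4.83 CPM in EDL 1 to 3, at 13.8, 9.89, and 10.4 in psoas 1 to 3, and at 11.1, 4.46, 2.31, and 10.1 in soleus 1 to 4. EDL 3 and soleus 2, which share an animal code, were the lowest of their muscles apart from soleus 3. Per2 was at 2.76, 3.45, and 2.91 CPM in EDL, at 12.0, 2.03, and 3.19 in psoas, and at 5.41, 2.54, 0.957, and 2.53 in soleus. Psoas 1 and soleus 1, which also share an animal code, were the highest of all libraries for Per2. Per3 was at 19.6, 12.8, and 12.4 CPM in EDL, at 12.0, 5.07, and 10.1 in psoas, and at 11.2, 9.87, 1.99, and 8.29 in soleus. Every EDL library was above every psoas and every soleus library for Per3, and soleus 3 was 5.59-fold below soleus 1.

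Cry2 had a narrower range. It was at 13.3, 9.71, and 17.6 CPM in EDL, at 10.5, 6.78, and 10.3 in psoas, and at 14.2, 15.5, 19.2, and 12.2 in soleus, so that all soleus libraries were above all psoas libraries. Ciart was at 3.27, 3.69, and 3.08 CPM in EDL, at 2.48, 1.59, and 1.63 in psoas, and at 3.35, 1.20, 0.319, and 2.75 in soleus. EDL and psoas did not overlap for Ciart, and soleus spanned a 10.5-fold range that covered psoas.

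Nr1d1 and Nr1d2 encode the receptors REV-ERB alpha and REV-ERB beta, which repress Arntl. Nr1d1 was at 6.21, 9.14, and 7.20 CPM in EDL, at 4.72, 10.6, and 8.78 in psoas, and at 4.45, 11.6, 6.38, and 9.501 in soleus, and the library from 42 days was again the lowest in each muscle. Its muscle means were the closest of the 10 genes, with 7.52 ± 1.49 CPM for EDL (SD, n = 3), 8.03 ± 3.004 for psoas (n = 3), and 7.99 ± 3.20 for soleus (n = 4). Nr1d2 was at 194, 171, and 219 CPM in EDL, at 196, 199, and 198 in psoas, and at 177, 144, 94.9, and 165 in soleus. All soleus libraries were below all psoas libraries for Nr1d2, and soleus 3 was the lowest.

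Dbp and Tef encode factors of the PAR bZIP family, which carry the rhythm to output genes through D-boxes. Dbp was at 20.8, 19.7, and 24.2 CPM in EDL, at 17.4, 13.2, and 12.7 in psoas, and at 21.3, 17.9, 4.07, and 14.0 in soleus. EDL and psoas did not overlap for Dbp, and soleus 3 was 5.25-fold below soleus 1 and below every other library. Tef was at 115, 91.1, and 204 CPM in EDL, at 181, 139, and 185 in psoas, and at 145, 120, 82.4, and 101 in soleus, with overlap between all muscles. The ratio of Arntl to Dbp CPM was 9.75 in soleus 3, between 0.0737 in soleus 1 and 1.09 in psoas 2 in the others, and at 0.0737 to 0.207 in the 3 libraries from 42 days.

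The muscles were compared with edgeR's quasi-likelihood test in a single fit of all 10 libraries. Libraries that share an animal code were treated as independent in it, so differences between mice stayed in the error. A gene was called if its fold change exceeded 2 and its p after Benjamini-Hochberg adjustment was under 0.01. No clock gene was called between psoas and EDL, where 2.11% of all genes were called, between soleus and EDL (5.77% of all genes), or between soleus and psoas (5.69%). At an adjusted p under 0.05 alone there was again none, against 11.1%, 18.6%, and 14.5% of all genes. At an unadjusted p under 0.05, edgeR had 0 of the 10 genes for psoas and EDL (29.0% of all genes), 0 for soleus and EDL (35.0%), and 1 for soleus and psoas (28.4%), which was Cry2. DESeq2 had 0, 2, and 3 clock genes at that unadjusted level and limma-voom 0, 3, and 3. The shares of all genes were not taken for these tools, so no difference is read from these counts. With the animal code as a random effect in limma-voom, no clock gene was called in any comparison. Of 16112 genes, 400, 1053, and 1005 were called there, in the order above. These tests do not show that the muscles were alike for these genes, since the standard errors were wide.

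**Figure D2:**
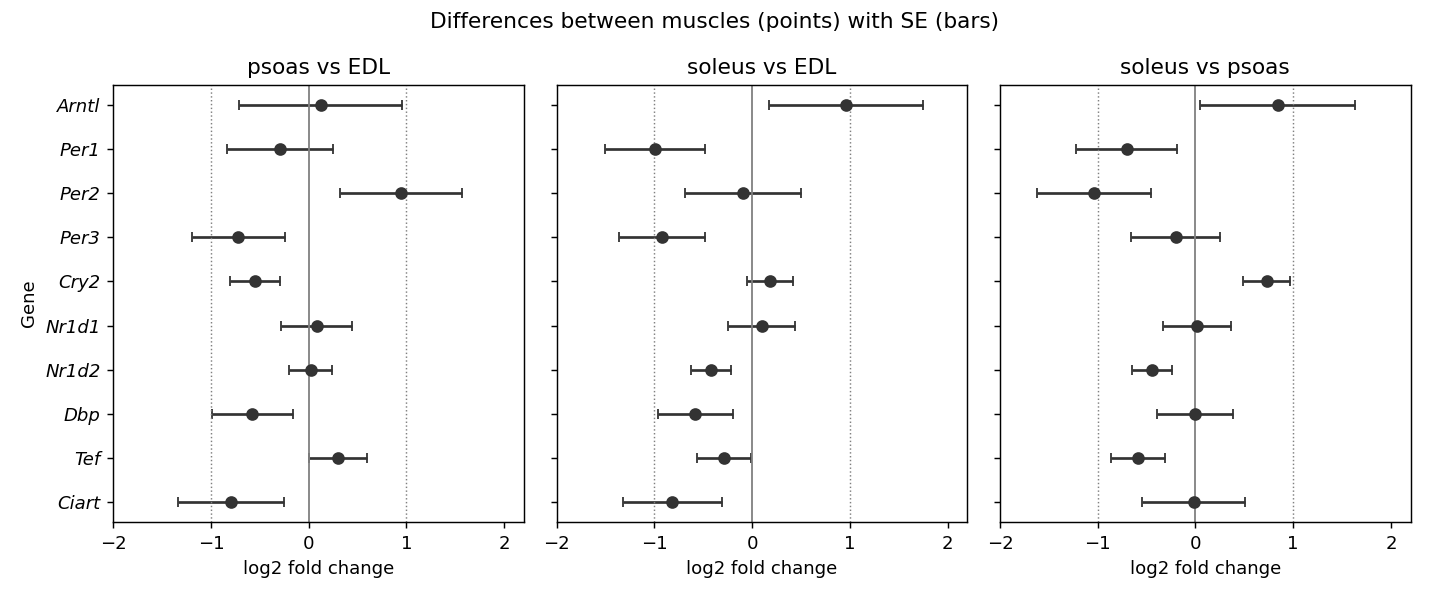
Log2 fold changes of the 10 clock genes between muscles in the edgeR fit, with bars of 1 SE; dotted lines mark a fold change of 2. No gene was called, and the bars of Arntl are the widest, with an SE of 0.83 between psoas and EDL.

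The lowest adjusted p was that of Cry2 between soleus and psoas, at 15.3 ± 2.94 (SD, n = 4) and 9.18 ± 2.08 CPM (n = 3), with a log2 fold change of 0.73 (SE 0.24, edgeR adjusted p = 0.0659). It was higher in 4 of 4 soleus libraries than in any psoas library. Per1 was at 6.997 ± 4.28 CPM (SD, n = 4) in soleus and 13.8 ± 7.80 (n = 3) in EDL, with a log2 fold change of -0.99 (SE 0.51, edgeR adjusted p = 0.187). Per2 was at 5.74 ± 5.46 CPM (SD, n = 3) in psoas and 2.86 ± 1.85 (n = 4) in soleus, with a log2 fold change of -1.04 for soleus over psoas (SE 0.59, edgeR adjusted p = 0.277). Psoas 1 was the highest psoas library, and without it the log2 fold change of Per2 was 0.12. Arntl had log2 fold changes of 0.96 (SE 0.79) for soleus over EDL and 0.84 (SE 0.80) for soleus over psoas, with edgeR adjusted p of 0.408 and 0.540. Without soleus 3 these values were -0.12 and -0.22.

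Groups that did not overlap were counted as a further description. Between psoas and EDL these were Per3, Dbp, and Ciart, 3 of 10 genes and each lower in psoas, against 29.6% of all genes. Between soleus and EDL it was Per3, 1 of 10, lower in soleus, against 29.5% of all genes. Between soleus and psoas they were Cry2, higher in soleus, and Nr1d2, lower in soleus, 2 of 10 against 25.8% of all genes. These shares were near those of all genes or below them. The 6 tendon markers moved with the same muscles, since all were called lower in psoas than in EDL and their summed level was 27.2 to 70.3 CPM in psoas, 506 to 532 in EDL, and 105 to 387 in soleus. Their part in these clock gene values was not tested.

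The spread between libraries of the same muscle was wide for most of the clock genes. It was taken as the SD of log2 CPM about the muscle means, with 7 degrees of freedom, and set beside the same SD over all genes. It was 1.41 for Arntl, which is above 98.0% of all genes, 0.957 for Per2 (92.5%), 0.948 for Ciart (92.2%), 0.916 for Per1 (91.6%), 0.842 for Per3 (89.4%), and 0.719 for Dbp (84.4%). For Nr1d1 it was 0.534 (72.1%) and for Tef 0.412 (58.4%). Cry2 at 0.344 (47.1%) and Nr1d2 at 0.280 (33.8%) were below the all-gene median of 0.361. The median over the 10 genes was 0.780, and 0.467 without soleus 3, where the all-gene median was 0.345. Without soleus 3, Arntl (1.15), Per2 (0.842), Per1 (0.773), and Nr1d1 (0.567) remained widely spread, and Dbp had an SD of 0.243.

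With soleus 3 included, the SD between libraries of the same age was below that between libraries of the same muscle for most of these genes. The SD about age means (6 degrees of freedom, with soleus 3 alone in its age) was 0.487 for Arntl, 0.256 for Nr1d1, 0.350 for Dbp, and 0.488 for Per3. It was lower than the SD about muscle means for 9 of the 10 genes, the exception being Tef (0.432 against 0.412), and for 33.6% of all genes. Without soleus 3 it was lower for 5 of the 10 (Arntl, Per1, Per2, Cry2, and Nr1d1) and for 30.6% of all genes. Of the variation of Arntl over the 10 libraries, 1.84% lay between muscle means and 90.0% between age means, against medians of 46.1% and 35.2% over all genes. For Nr1d1, 0.0953% lay between muscle means and 80.3% between age means. Without soleus 3 these shares were 3.56% and 82.8% for Arntl and 0.626% and 79.7% for Nr1d1, with all-gene medians of 48.9% and 22.9%. For Dbp the share between age means fell from 84.7% to 15.9% without soleus 3. The 4 ages use 1 more mean than the 3 muscles, which raises the share between ages in general.

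**Figure D3:**
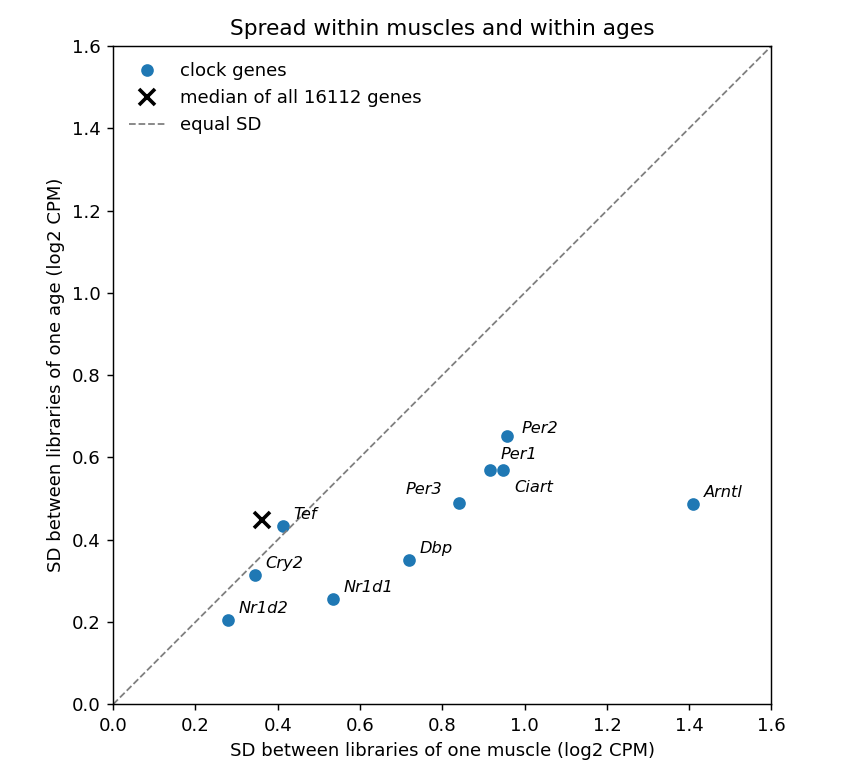
SD of log2 CPM between libraries of the same muscle (horizontal) and between libraries of the same age (vertical) for the 10 clock genes, with a cross at the medians of all genes and a dashed line of equal SD. Arntl, at 1.41 and 0.487, lies farthest below the line, whereas the median gene, at 0.361 and 0.448, lies above it.

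Muscles that share an animal code gave a related view. The median absolute log2 difference between the 3 such pairs was lower than that between the 12 pairs of libraries of the same muscle for 7 of the 10 clock genes, and for 43.7% of all genes. For Per1 it was 0.115 in the shared-code pairs and 1.05 in the same-muscle pairs. For Nr1d1 these values were 0.113 and 0.560, for Per2 0.322 and 1.07, for Per3 0.277 and 0.632, and for Arntl 0.608 and 1.72. Nr1d2, Tef, and Ciart did not follow this order, and Tef differed by 0.771 in the shared-code pairs and 0.390 in the same-muscle pairs. In direction, soleus was below its partner (psoas 1, EDL 3, or psoas 3) in all 3 pairs for Per1, Per2, Per3, Nr1d2, and Tef. For Nr1d2 the log2 differences were -0.148, -0.602, and -0.260. For Arntl, Cry2, Nr1d1, Dbp, and Ciart the direction varied between pairs. These directions were not set beside those of all genes. Soleus 3 has no partner of the same code and enters only the same-muscle pairs. Without it 9 same-muscle pairs remained, the shared-code pairs were again closer for 7 of the 10 genes, against 42.1% of all genes, and the same-muscle median was 1.17 for Arntl, 0.475 for Per1, and 0.300 for Dbp, for which the shared-code median was 0.297.

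The comparisons by age include these 3 shared-code pairs, so libraries of the same age but of different muscles and codes were also compared (6 pairs). For these pairs the median absolute log2 difference was lower than that of the 12 same-muscle pairs for 6 of the 10 clock genes and for 33.3% of all genes, and without soleus 3 for 3 of the 10 and 31.5% of all genes. Arntl was at 0.304 in these pairs, against 1.72 in the same-muscle pairs, and Nr1d1 at 0.393, against 0.560. Per3 (0.643 against 0.632), Cry2 (0.515 against 0.416), Dbp (0.536 against 0.376), and Tef (0.620 against 0.390) were farther apart at the same age than in the same muscle. The median over the 10 genes was 0.523 for the same age and different codes, 0.287 for a shared code, and 0.582 for the same muscle, or 0.413 without soleus 3. Over all genes the medians were 0.489, 0.413, and 0.357.

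The term for age was then tested in an additive edgeR fit of muscle and age (F-test over the 3 differences between the 4 ages). The animal codes lie within ages: the 4 libraries from 44 days carry 2 codes, and 2 of the 3 libraries from 42 days share 1. This fit counts muscles of the same mouse as independent. Arntl and Per3 were called at an adjusted p under 0.05, 2 of the 10 genes against 0.906% of all genes. For Arntl, F was 24.2 (edgeR adjusted p = 0.0235). Its fitted level at 42 days was below that at 44 days by a log2 fold change of -1.48 (SE 0.33) and below that at 54 days by -2.04 (SE 0.35), and its level at 32 days, which is soleus 3 alone, was above that at 44 days by 2.17 (SE 0.40). For Per3, the edgeR adjusted p was 0.0467, with a log2 fold change of -2.16 (SE 0.38) for soleus 3 over the level at 44 days and 0.85 (SE 0.24) for 42 over 54 days. Dbp had an edgeR adjusted p of 0.0505, and a log2 fold change of -2.04 (SE 0.32) for soleus 3 over the level at 44 days. At an unadjusted p under 0.05 there were 8 of the 10 genes, all but Nr1d2 and Tef, against 14.1% of all genes. In a fit chosen after seeing the data, limma-voom with the animal code as a random effect, Arntl alone was called (limma adjusted p = 0.0112), and Per3 had a limma adjusted p of 0.132. The correlation between libraries of the same code in that fit was estimated as -0.221. With this negative value, the adjusted p of Arntl was lower than in limma-voom without the animal code. That fit therefore does not correct the call for muscles that come from the same mouse.

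These calls depended on single libraries. The edgeR adjusted p of Arntl was 0.0785 without psoas 3, 0.0690 without soleus 2, 0.0560 without soleus 3, and 0.0514 without soleus 4. The unadjusted edgeR p was 0.000150, 0.000289, 0.000605, and 0.000137 in these fits and 7.77e-05 with all libraries. An adjusted p also depends on the other genes. Over all genes, 146 were called with all libraries, and 19, 23, 157, and 40 in these fits. The adjusted p of Arntl stayed under 0.05 without any of the other 6 libraries. Per3 lost its call without EDL 3, psoas 1, psoas 3, or any of the 4 soleus libraries, and its edgeR adjusted p without soleus 3 was 0.248. The 8 genes at an unadjusted p under 0.05 also depended on soleus 3 and on the tool. Without soleus 3, Per1, Dbp, and Ciart were no longer under it, with unadjusted edgeR p of 0.0844, 0.293, and 0.282. In limma-voom with all libraries, Per1, Per2, and Ciart were not under it, whereas Nr1d2 was. Some other gene lists moved with the same labels. The summed level of 5 erythroid markers was between 25.7 and 137 CPM in the libraries from 42 and 54 days and between 3.54 and 16.4 CPM in those from 44 days, with 5.82 CPM in soleus 3. Most of these markers are globin genes, and the library kit included a globin treatment. Their level may therefore not follow the blood content of the tissue. At an unadjusted p under 0.05 for age there were 5 of 5 erythroid markers, 8 of 10 immediate early genes, 5 of 6 tendon markers, 3 of 4 macrophage markers, and 4 of 9 glucocorticoid-induced genes, against the 14.1% of all genes. Other lists were near or below that share, with 1 of 8 muscle identity genes and 1 of 7 cold and heat responsive genes. There were 0 of 5 adipocyte, 0 of 5 Schwann cell, and 0 of 4 endothelial markers. Fos, Fosb, and Junb among the immediate early genes were also called at the adjusted level, and Fos was at 49.2 CPM in soleus 3 and between 1.06 and 22.0 CPM elsewhere. The part of these differences in the clock gene values was not tested.

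**Figure D4:**
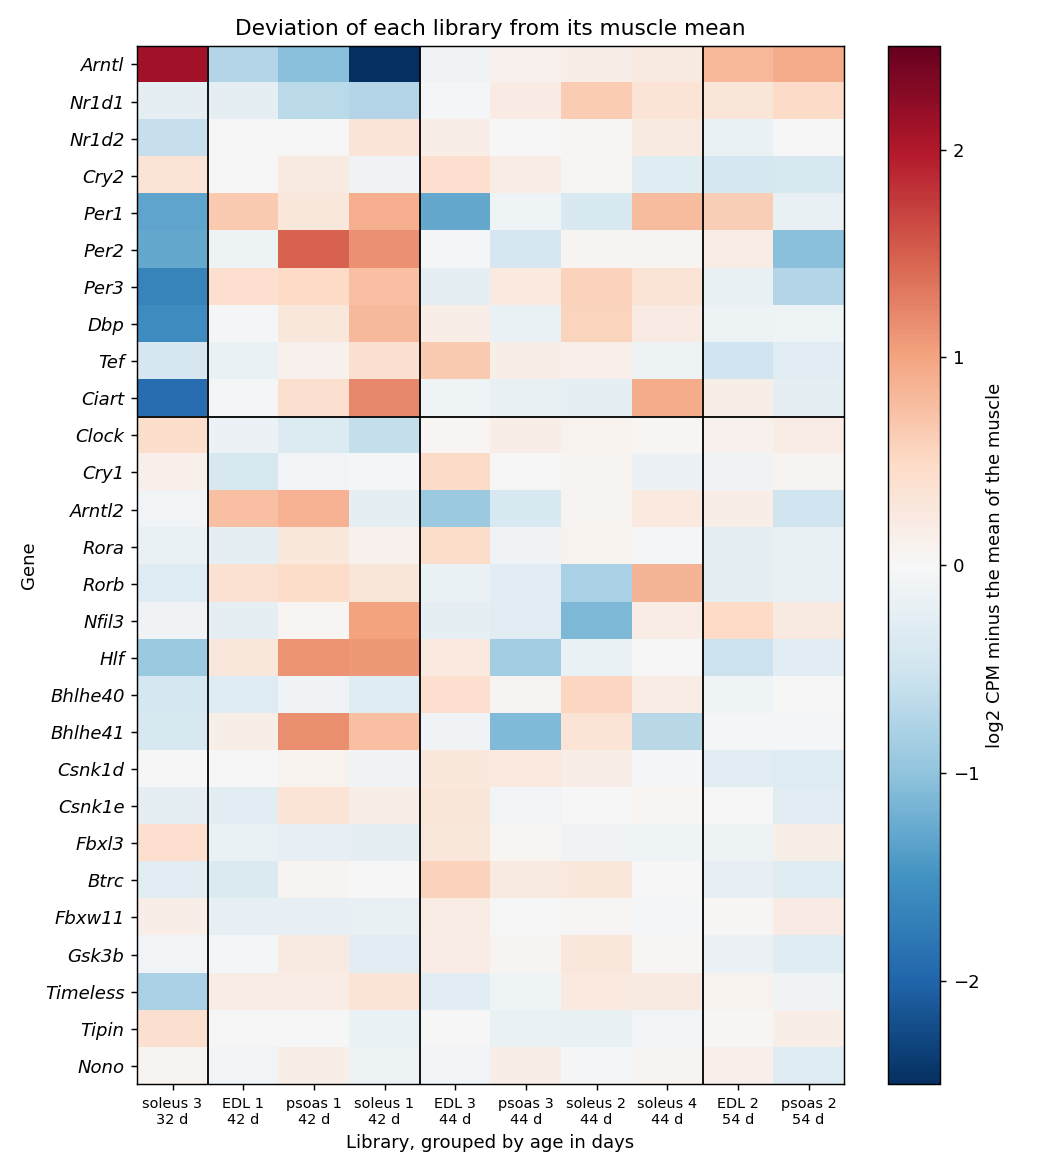
Log2 CPM minus the mean of the muscle for the 10 clock genes (above the line) and 18 further clock genes (below it), in libraries grouped by age. Soleus 3 is high for Arntl and low for Per1, Per2, Per3, Dbp, and Ciart, whereas the 3 libraries from 42 days are low for Arntl.

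With age in the fit, the differences between muscles changed for some genes. Arntl had log2 fold changes of 0.05 (SE 0.31) for psoas over EDL, -0.03 (SE 0.36) for soleus over EDL, and -0.08 (SE 0.36) for soleus over psoas. Per3 passed an adjusted p under 0.05 between psoas and EDL, with a log2 fold change of -0.78 (SE 0.21, edgeR adjusted p = 0.0363), 1 of the 10 genes against 15.3% of all genes. None did between soleus and EDL (10.7% of all genes) or soleus and psoas (11.5%). In the fit without age, Per3 had -0.72 (SE 0.48) for psoas over EDL, so the estimate differed little and its SE was smaller with age. Cry2 between soleus and psoas had a log2 fold change of 0.40 (SE 0.19, edgeR adjusted p = 0.206) with age in the fit.

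The direction in which clock genes deviated from the mean of their muscle was set beside that of Arntl. Dbp, Per1, and Tef deviated in the opposite direction in 7 of 10 libraries each, Per3, Cry2, and Ciart in 6, Per2 and Nr1d2 in 5, and Nr1d1 in 1, which was soleus 3. With soleus 3 left out and the means taken again, Dbp, Tef, and Cry2 were opposite to Arntl in 7 of 9 libraries, Per1, Per2, and Per3 in 6, Nr1d2 and Ciart in 5, and Nr1d1 in 0. These counts were not set beside those of all genes, and libraries of the same animal code are not independent. No opposite timing is read from them. In soleus 3, Arntl and Cry2 were above their muscle mean and the other 8 genes below it. In soleus 1 and psoas 1 (one animal code), Arntl and Nr1d1 were low and Per1, Per2, Per3, Dbp, Tef, and Ciart high.

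The genes most like Arntl were sought among 12654 genes with a symbol and a mean of at least 1 CPM, by Pearson's r of the deviations from the muscle means over the 10 libraries, which come from 7 animal codes and are not all independent. The highest values were those of Pnrc2 (0.984), Clock (0.966), Pcm1 (0.962), Nol12 (0.957), and Krit1 (0.951), and the lowest those of Gm5611 (-0.943), Rbl1 (-0.941), Rcn1 (-0.938), Cpt1a (-0.928), and Tspan4 (-0.927). Without soleus 3 the r to Arntl was 0.973 for Pnrc2 and 0.951 for Clock, and at least 0.919 for the other 3, while the lowest 5 lay between -0.962 and -0.874. Clock, which encodes the partner of BMAL1, was at 33.0, 39.4, and 37.9 CPM in EDL, at 31.0, 44.8, and 44.6 in psoas, and at 32.4, 52.0, 66.4, and 50.8 in soleus. It was thus lowest in the library from 42 days of each muscle and highest in soleus 3, but its SD within muscles (0.333) was far smaller than that of Arntl. The genes most like Dbp were Srm (0.983), Cad (0.977), Pcdhb22 (0.977), Crtc3 (0.970), and Pgghg (0.970), and the least like it were Ddx31 (-0.982), Dpyd (-0.964), Zscan12 (-0.963), Cwf19l2 (-0.962), and Zfp870 (-0.959). The deviation of Dbp was by far the largest in soleus 3, which weighs on each of these values. Without soleus 3 the first 5 had an r of 0.667 to 0.857 and the last 5 of -0.805 to -0.590, and none of the 10 was among the 100 genes nearest either end.

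Of 20 further genes of the clock, 18 were in the tables; Npas2 and Fbxl21 were not analysed here. At an adjusted p under 0.05, 3 of them (Cry1, Rora, and Gsk3b) were higher in psoas than in EDL, against the 11.1% of all genes given above. Between soleus and EDL, Cry1 and Gsk3b were higher and Tipin lower in soleus, and between soleus and psoas Rora was lower in soleus. These are 3 of 18 against 18.6% of all genes and 1 of 18 against 14.5%. Only Gsk3b, between soleus and EDL, was also past the stricter threshold. Cry1, a repressor like Cry2, averaged 3.39 ± 1.10 CPM for EDL (SD, n = 3), 6.83 ± 0.351 for psoas (n = 3), and 6.42 ± 0.542 for soleus (n = 4). The log2 fold change was 1.02 (SE 0.24, edgeR adjusted p = 0.0210) for psoas over EDL and 0.93 (SE 0.22, edgeR adjusted p = 0.0157) for soleus over EDL. Rora, a receptor that activates Arntl, was at 117 ± 19.2 CPM (SD, n = 3) in psoas, 69.8 ± 20.7 (n = 3) in EDL, and 68.1 ± 5.95 (n = 4) in soleus, with edgeR adjusted p of 0.0469 for psoas and EDL and 0.0226 for soleus and psoas. Gsk3b, a kinase that acts on clock proteins and in glycogen synthesis, was at 40.2 ± 6.46 CPM (SD, n = 4) in soleus and 16.5 ± 1.96 (n = 3) in EDL, with a log2 fold change of 1.29 (SE 0.18, edgeR adjusted p = 0.00104). Tipin was lower in soleus than in EDL, with a log2 fold change of -0.61 (SE 0.19, edgeR adjusted p = 0.0477). With age in the fit, the soleus and EDL values of Cry1 (log2 fold change 0.86, edgeR adjusted p = 0.0559) and Tipin (-0.71, edgeR adjusted p = 0.0502) were no longer under 0.05, whereas Gsk3b in that comparison, Rora between soleus and psoas, and all 3 genes between psoas and EDL stayed under it. The median SD within muscles of the 18 genes was 0.297, below the all-gene median, and none was called for age, with 3 at an unadjusted p under 0.05 in edgeR (Clock, Hlf, and Bhlhe40), against 14.1% of all genes.

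A further 12 genes known to be rhythmic in muscle were read the same way. Pdk4, an inhibitor of glucose oxidation, was called higher in soleus (743 ± 290 CPM, SD, n = 4) than in EDL (81.6 ± 59.8, n = 3), with a log2 fold change of 3.19 (SE 0.54, edgeR adjusted p = 0.00298). Tcap also passed an adjusted p under 0.05 as higher, and Tsc22d3 and Tbc1d1 as lower, in soleus than in EDL, so that 4 of 12 did so, against 18.6% of all genes. Between psoas and EDL, Pdk4 alone passed this level, as higher in psoas (1 of 12, against 11.1%). Between soleus and psoas, Tsc22d3, Myod1, and Tbc1d1 passed as lower in soleus (3 of 12, against 14.5%). With age in the fit, Usp2 (log2 fold change 1.48, edgeR adjusted p = 0.00545), Ucp3 (1.63, edgeR adjusted p = 0.00590), and Pdk4 passed as higher in psoas than in EDL. The share of all genes was 15.3% there. Between soleus and EDL, Pdk4 and Tsc22d3 still passed, against 10.7%, and Tcap and Tbc1d1 did not. Between soleus and psoas, Tsc22d3 and Usp2 passed as lower in soleus, against 11.5%, and Myod1 and Tbc1d1 did not. Usp2, whose rhythm follows the clock in many tissues, was at 8.62, 7.11, and 4.94 CPM in EDL, at 31.1, 12.6, and 16.7 in psoas, and at 14.8, 6.28, 2.71, and 9.66 in soleus. It was highest in the library from 42 days of each muscle and lowest of the soleus libraries in soleus 3, as Per3 was, and its F-test for age gave an edgeR adjusted p of 0.0706. None of the 12 genes was called for age, with 3 at an unadjusted p under 0.05 in edgeR, against 14.1% of all genes.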

How the data were processed

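Per the labels and methods, RNA of EDL, psoas, and soleus was sequenced as stranded paired reads after a treatment against ribosomal and globin RNA. Several runs were used, and the run of each library is not given in the sources used here. The authors trimmed reads of EDL 1 and 2 and psoas 1 and 2 with Trimmomatic 0.32, aligned reads with TopHat2 2.1.1 to mm10 (GRCm38.p4), and deposited raw counts per gene, 1 table per library, for genes that reached 10 reads in 3 or more samples. All 16112 genes met this filter when tested on the files, and 16032 had a symbol in GENCODE M21.

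From these counts, fits were made with R 4.3.3, edgeR 4.0.16 (TMM, quasi-likelihood, no covariate), DESeq2 1.42.0, and limma 3.58.1, and tables with Python 3.11.15, numpy 2.4.6, and pandas 2.3.3. Log2 CPM used a prior count of 2. FPKM used summed exon lengths. A count of 0 allows 3 counts, or 0.0595 to 0.236 CPM, which covers counting error only. Muscles were taken from the sample labels, and p-values measure the spread between these libraries. The fits were tested on simulated data. The 10 genes, the further gene lists, and the tests were chosen with earlier results of these data known. Genes named are the 10 clock genes, members of the other lists past a call rule or chosen by role, and the 5 genes with the highest and the lowest r to Arntl and to Dbp. Same-numbered libraries did not deviate together in every pair (r between -0.234 and 0.503 over all genes), so replicate numbers were not used as pairs. Alternatives were other tools, scalings, filters, thresholds, covariates for age, sex, and read trimming, the animal as a random effect, a replicate block, and fits without each library. Values of 1 further gene are not reported here.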

Additional observations from a re-analysis of the deposited data

How the results depend on the processing

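None of the 10 clock genes was called between muscles (adjusted p under 0.01 and fold over 2) in any of the 23 alternatives for psoas and EDL or the 22 for each soleus comparison. At an adjusted p under 0.05, Cry2 passed between soleus and psoas with DESeq2 (0.0496), with at least 10 counts in every library (0.0499), without EDL 3 (0.0424), and with a replicate block (0.0296). The replicate block gave 0 clock genes called in each comparison. Per1 passed between soleus and EDL without EDL 3 (0.0441), Per3 between psoas and EDL with age (0.0363), Tef between soleus and psoas with read trimming (0.0482), and Dbp between psoas and EDL with sex (0.0499) as a covariate. Of 667 log2 fold changes of uncalled genes, 61 had the other sign than the value reported, and 21 moved by more than 1 SE. The number of clock genes called for age was 2 in the main fit, where 146 of 16112 genes were called. It was 4 with DESeq2's likelihood ratio test (716 of 15799 genes) and 1 with limma-voom (115 of 16112). With the animal as a random effect in limma-voom (chosen after seeing the data) it was 1 (186 of 16112). At an adjusted p under 0.01 it was 0 (14 of 16112). Without each library in turn it was between 0 and 4, with 358 of all genes called without EDL 1 and 19 without psoas 3. Dbp took the place of Per3 with upper-quartile normalization and with at least 10 counts in every library. The median SD within muscles was between 0.467 and 0.839 without each library. The causes of these changes were not tested. Precision is limited by 3 or 4 libraries per muscle, by counts as low as 4 (Ciart in soleus 3), and by the single library at 32 days.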
